A study of Homo sapiens with 12 samples.

Results

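The genes described here are 10 genes often read as outputs of the MAPK pathway. They are the phosphatase genes DUSP4, DUSP5 and DUSP6, the Sprouty genes SPRY2 and SPRY4, the Spred genes SPRED1 and SPRED2, the PEA3 transcription factor genes ETV4 and ETV5, and PHLDA1. They were taken by name from a count table of 57353 gene names, by a rule that uses no measured value, although earlier results of these data were known when the rule was made. All 10 are in the table and passed the filter on low counts (averages of 1 raw count and 1 CPM or more). DUSP5 and SPRY4 passed it through the groups in which they are high, because both lie under 1 CPM with quizartinib in RPMI. DUSP5 also lies under 1 CPM with quizartinib in hBMSC-CM (mean 0.801 CPM), so it passed through the vehicle groups.

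The RNA came from MOLM-13, an established human AML cell line with an internal tandem duplication of FLT3 (FLT3-ITD), a mutation that keeps this receptor kinase active. The cells were harvested 15 hr after addition of DMSO vehicle or 3 nM quizartinib (AC220), an inhibitor of FLT3. They were kept in RPMI with serum, or in hBMSC-CM, which is RPMI mixed in equal parts with filtered medium conditioned by HS-5, a line of human marrow stroma. There were 3 replicates in each of the 4 groups, all from 1 cell line, and total counts per library lay between 19966546 and 31546104. The study describes its replicates as biological, and p-values measure the spread between these libraries of 1 line. CPM values are counts divided by library size and TMM factor, so they are shares of the RNA sampled, and fewer cells expressing a gene and less RNA per cell cannot be told apart.

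FLT3 signals through Ras, RAF, MEK and ERK, the MAPK cascade. Active ERK raises the transcription of a set of genes whose products act back on the cascade. DUSP6 encodes a cytoplasmic phosphatase that removes the activating phosphates of ERK, DUSP5 a nuclear phosphatase for ERK, and DUSP4 a nuclear phosphatase that acts on ERK and other MAP kinases. Sprouty and Spred proteins act further up and restrain the activation of Ras and RAF, the Spreds together with the Ras inhibitor neurofibromin. ETV4 and ETV5 are ETS-family transcription factors that act downstream of receptor kinases, and PHLDA1 encodes a pleckstrin homology-like protein induced by growth factor signals.

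With quizartinib in RPMI, 9 of the 10 genes were lower than with vehicle, where 39.2% of the 12998 tested genes were, and 8 were lower by at least 2-fold, where 11.8% were. The libraries did not overlap for 9 genes (81.1% of tested genes, either direction). The median log2 fold change was −2.46 over the 10 genes and 0.03 over all tested genes. In hBMSC-CM the same number of genes, 9 of 10, was lower with quizartinib (33.7% of tested genes were), but by less, with a median of −0.63, and 3 were lower by at least 2-fold (2.03% were). The libraries again did not overlap for 9 genes (68.4% of tested genes, either direction). The difference between these responses, tested as an interaction of drug and medium, was positive and called for 8 genes, where 26.1% of tested genes were, and exceeded 2-fold for 7 of them (4.89% were). For PHLDA1 and DUSP4 the interaction did not pass the threshold. Genes were called at an adjusted p under 0.05 from edgeR.

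**Figure D1:**
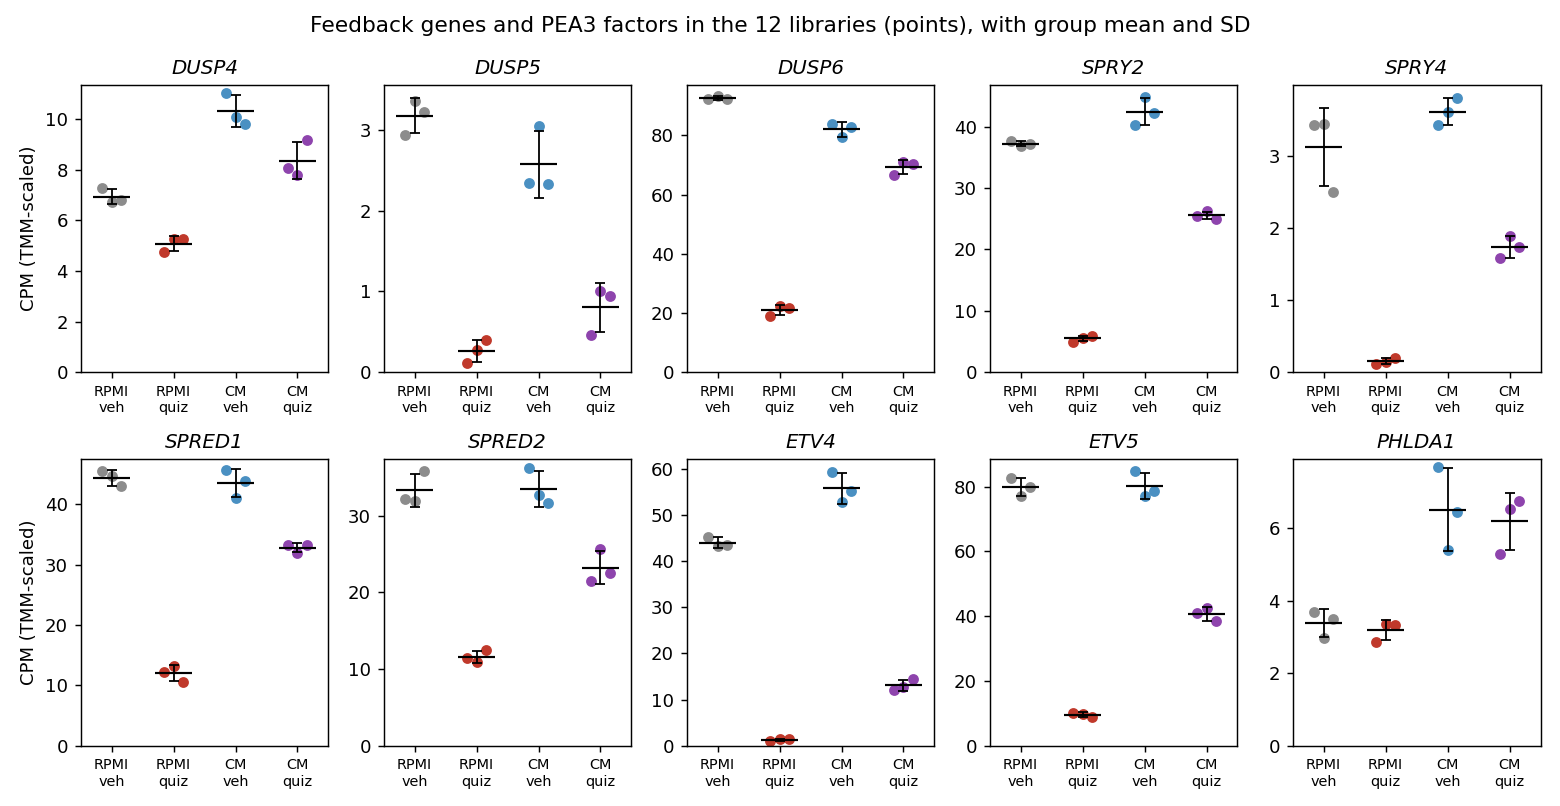
Level of each of the 10 genes (CPM scaled by TMM, linear axes from 0) in the 12 libraries, grouped by medium (RPMI; CM, hBMSC-CM) and treatment (veh, vehicle; quiz, quizartinib). Points are libraries, and horizontal lines and bars are the mean and SD of 3 replicates. Quizartinib points in RPMI lie below the vehicle points for each gene except PHLDA1, and the hBMSC-CM quizartinib points lie above the RPMI quizartinib points in each panel.

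The start regions of the genes are shown because 9 of the genes were lower with quizartinib in RPMI and PHLDA1 was not called. RefSeq start windows (GRCh38.p14) matched 6 of the 10 genes, and DUSP4, DUSP5, ETV4 and ETV5 had no entry. The 250 bases before the start of DUSP6 (chr12:89352502-89352751, minus strand), SPRY2 (chr13:80341127-80341376, minus strand) and PHLDA1 (chr12:76031777-76032026, minus strand) follow, 5′ to 3′ along the gene. Capitals mark GGAA, the core of the ETS motif, or TTCC, the same core on the other strand.
DUSP6: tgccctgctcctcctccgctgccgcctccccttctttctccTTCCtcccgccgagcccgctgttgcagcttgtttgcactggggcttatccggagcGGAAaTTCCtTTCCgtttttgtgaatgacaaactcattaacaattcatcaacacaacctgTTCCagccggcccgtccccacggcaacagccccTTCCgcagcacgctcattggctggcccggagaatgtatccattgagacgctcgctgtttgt
SPRY2: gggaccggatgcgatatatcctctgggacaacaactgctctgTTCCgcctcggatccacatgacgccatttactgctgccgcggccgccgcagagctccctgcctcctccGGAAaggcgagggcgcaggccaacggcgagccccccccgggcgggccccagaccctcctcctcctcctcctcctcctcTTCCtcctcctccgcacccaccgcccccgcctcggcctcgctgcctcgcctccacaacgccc
PHLDA1: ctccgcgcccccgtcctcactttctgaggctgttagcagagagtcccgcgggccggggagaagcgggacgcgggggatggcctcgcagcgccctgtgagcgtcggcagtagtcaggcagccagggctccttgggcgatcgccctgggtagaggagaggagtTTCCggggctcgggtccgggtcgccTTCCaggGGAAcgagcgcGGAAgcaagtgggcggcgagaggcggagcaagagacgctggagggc
The core occurs 6 times before DUSP6, 3 times before SPRY2 and 4 times before PHLDA1, with a median of 3 over 35116 windows of this length, 92.7% of which hold it. It occurs 2 times before SPRY4, 3 times before SPRED1, 4 and 5 times before the starts listed for SPRED2, and 4 times before each of the other 2 starts listed for SPRY2. The longer ETS motif CCGGAAGT (3.42% of windows), the CIC octamers TGAATGAA (1.40%) and TGAATGGA (0.832%) and the AP-1 motif TGACTCA (4.2%), searched on both strands, have no complete match in the 9 windows of the 6 genes. A TGACTCA of SPRED2 runs across the start itself and so lies partly outside its window. The 4-letter core lies within the longer ETS motif. These matches are a description of letters, and a window of this length says nothing about sites elsewhere.

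ETV4 and ETV5 bind DNA through an ETS domain and belong, with ETV1, to the PEA3 group. ETV4 (chromosome 17, 43527844 to 43579620, minus strand, GRCh38) had 45.3, 43.2 and 43.5 CPM in the vehicle libraries in RPMI and 1.09, 1.49 and 1.37 CPM in the quizartinib libraries. In hBMSC-CM it had 59.3, 52.8 and 55.2 CPM with vehicle and 12.1, 12.8 and 14.5 CPM with quizartinib. None of the 4 groups overlapped another. The log2 fold change with quizartinib was −5.06 in RPMI (standard error 0.105, edgeR adjusted p = 5.64e-20), which placed ETV4 2nd from the lowest of the 12998 genes. It was −2.10 in hBMSC-CM (standard error 0.0702, edgeR adjusted p = 1.15e-15), so that 23.4% of the vehicle level remained there against 3.01% in RPMI. The interaction was 2.96 (standard error 0.143, edgeR adjusted p = 7.22e-13). Part of the canonical ETV4 transcript lies opposite exons of DHX8, a helicase gene, and the counting strand is not given in the sources used here. DHX8 rose with quizartinib in RPMI (log2 fold change 0.24), with 126.5 ± 2.34 CPM for vehicle and 149.0 ± 1.03 CPM for the drug (SD, n = 3).

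ETV5 (chromosome 3, 186046314 to 186110318, minus strand) had 82.6, 77.0 and 79.9 CPM with vehicle and 10.2, 9.77 and 8.89 CPM with quizartinib in RPMI. Its levels in hBMSC-CM were 84.8, 77.0 and 78.6 CPM with vehicle and 40.9, 42.5 and 38.4 CPM with quizartinib. The vehicle libraries of the media overlapped, and the quizartinib libraries lay below them and apart from each other. The log2 fold change was −3.04 in RPMI (standard error 0.0652) and −0.98 in hBMSC-CM (standard error 0.0548), and the interaction was 2.06 (standard error 0.0863, edgeR adjusted p = 7.56e-14). Exons of DGKG on the same strand overlap the canonical ETV5 transcript. How reads in the shared part were counted is not given in the sources used here. In RPMI, DGKG fell with quizartinib by a log2 fold change of −0.69 (12.97 ± 0.980 CPM against 8.10 ± 1.05 CPM, SD, n = 3). ETV5 with quizartinib stood at 12.1% of its vehicle level in RPMI and at 50.6% in hBMSC-CM.

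SPRY2 and SPRY4 encode membrane-associated inhibitors that are themselves switched on by receptor kinase signals. SPRY2 (chromosome 13, 80335976 to 80341126, minus strand) had 37.7, 36.9 and 37.2 CPM with vehicle and 4.97, 5.63 and 5.86 CPM with quizartinib in RPMI. The hBMSC-CM libraries had 40.4, 44.9 and 42.3 CPM with vehicle and 25.4, 26.25 and 25.02 CPM with quizartinib. No group overlapped another, and the quizartinib libraries in RPMI were far below the rest. The log2 fold change was −2.77 in RPMI (standard error 0.0722) and −0.73 in hBMSC-CM (standard error 0.0578), with an interaction of 2.04 (standard error 0.0946, edgeR adjusted p = 3.91e-13).

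SPRY4 (chromosome 5, 142310427 to 142326455, minus strand) was among the least abundant of the 10 genes, with 100, 88 and 54 counts (3.42, 3.44 and 2.49 CPM) in the vehicle libraries in RPMI. With quizartinib in RPMI it had 3, 4 and 4 counts (0.116, 0.139 and 0.195 CPM). In hBMSC-CM it had 3.43, 3.60 and 3.80 CPM with vehicle and 1.58, 1.89 and 1.73 CPM with quizartinib. The quizartinib groups stood apart from each other and from both vehicle groups, while the vehicle groups overlapped. From summed counts of 11 and 242, the level with quizartinib in RPMI was 4.63% of that with vehicle (95% exact binomial interval 2.28% to 8.44%, counting error only), against 48.0% in hBMSC-CM (interval 38.4% to 59.6%). The fitted interaction was 3.32 (standard error 0.354, edgeR adjusted p = 1.38e-07), the largest fitted value of the 10 genes, with a standard error exceeded by that of DUSP5. Its lead over ETV4 (2.96) rests on these few counts and was not tested.

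SPRED1 and SPRED2 encode proteins related to the Sproutys. SPRED1 (chromosome 15, 38252836 to 38357249, plus strand) had 45.5, 44.6 and 42.9 CPM with vehicle and 12.2, 13.2 and 10.6 CPM with quizartinib in RPMI. Its levels in hBMSC-CM were 45.6, 41.0 and 43.8 CPM with vehicle and 33.3, 31.96 and 33.2 CPM with quizartinib. The vehicle groups overlapped, and each quizartinib group stood apart. The log2 fold changes were −1.88 (standard error 0.0690) and −0.41 (standard error 0.0619), with an interaction of 1.47 (standard error 0.0932, edgeR adjusted p = 4.82e-11).

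SPRED2 (chromosome 2, 65310851 to 65432637, minus strand) had 32.1, 31.96 and 35.8 CPM with vehicle and 11.4, 10.95 and 12.5 CPM with quizartinib in RPMI. The hBMSC-CM libraries had 36.2, 32.7 and 31.7 CPM with vehicle and 21.5, 25.6 and 22.5 CPM with quizartinib. As for SPRED1, the vehicle groups overlapped and each quizartinib group stood apart. Its log2 fold changes were −1.52 (standard error 0.0805) and −0.54 (standard error 0.0741), with an interaction of 0.98 (standard error 0.110, edgeR adjusted p = 2.64e-07).

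Of the phosphatase genes, DUSP6 (chromosome 12, 89347235 to 89352501, minus strand) was the most abundant and came closest to its vehicle level in hBMSC-CM under the drug. It had 92.2, 93.3 and 92.3 CPM with vehicle and 18.9, 22.2 and 21.7 CPM with quizartinib in RPMI. In hBMSC-CM it had 83.8, 79.3 and 82.9 CPM with vehicle and 66.7, 70.8 and 70.3 CPM with quizartinib. No group overlapped another, and both hBMSC-CM groups lay nearer to RPMI vehicle than to RPMI quizartinib. The log2 fold change of −2.14 in RPMI (standard error 0.0553) was −0.25 in hBMSC-CM (standard error 0.0498, edgeR adjusted p = 0.000204), and the interaction was 1.90 (standard error 0.0746, edgeR adjusted p = 3.35e-14).

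DUSP5 (chromosome 10, 110497907 to 110511533, plus strand) had 2.94, 3.36 and 3.23 CPM with vehicle in RPMI and 3, 8 and 8 counts (0.116, 0.278 and 0.391 CPM) with quizartinib. Its levels in hBMSC-CM were 2.34, 3.05 and 2.33 CPM with vehicle and 0.456, 1.01 and 0.937 CPM with quizartinib. The quizartinib libraries of both media lay far below all vehicle libraries, and the RPMI ones were the lowest. The level with quizartinib was 8.01% of vehicle in RPMI (95% exact binomial interval 4.74% to 12.8%) and 30.4% in hBMSC-CM (interval 22.1% to 41.2%), counting error only. The interaction was 1.91 (standard error 0.437, edgeR adjusted p = 0.00129). DUSP5 therefore stayed at a lower share of its vehicle level in hBMSC-CM than any other of the 10 genes but ETV4.

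DUSP4 (chromosome 8, 29333064 to 29350684, minus strand) had 7.28, 6.73 and 6.82 CPM with vehicle and 4.73, 5.25 and 5.27 CPM with quizartinib in RPMI. The hBMSC-CM libraries had 11.05, 10.1 and 9.82 CPM with vehicle and 8.09, 7.81 and 9.19 CPM with quizartinib. Both hBMSC-CM groups stood above both RPMI groups, whether or not the drug was present. With quizartinib it had a log2 fold change of −0.45 in RPMI (standard error 0.103, edgeR adjusted p = 0.000436) and of −0.32 in hBMSC-CM (standard error 0.0913, edgeR adjusted p = 0.00471). The interaction of 0.14 was about the size of its error (standard error 0.138, edgeR adjusted p = 0.439), which does not show that the responses are alike.

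PHLDA1 (chromosome 12, 76025447 to 76031776, minus strand) had 3.69, 2.97 and 3.504 CPM with vehicle and 2.87, 3.37 and 3.32 CPM with quizartinib in RPMI. In hBMSC-CM it had 7.68, 5.41 and 6.45 CPM with vehicle and 5.29, 6.54 and 6.75 CPM with quizartinib. Its groups separated by medium and overlapped by drug. The log2 fold change with quizartinib was −0.09 in RPMI (standard error 0.161, edgeR adjusted p = 0.606) and −0.11 in hBMSC-CM (standard error 0.130, edgeR adjusted p = 0.483), with an interaction of −0.02 (standard error 0.208, edgeR adjusted p = 0.963). An antisense gene, PHLDA1-AS1, overlaps its transcript, as an unnamed gene on the opposite strand does that of DUSP6, and neither was analysed here.

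**Figure D2:**
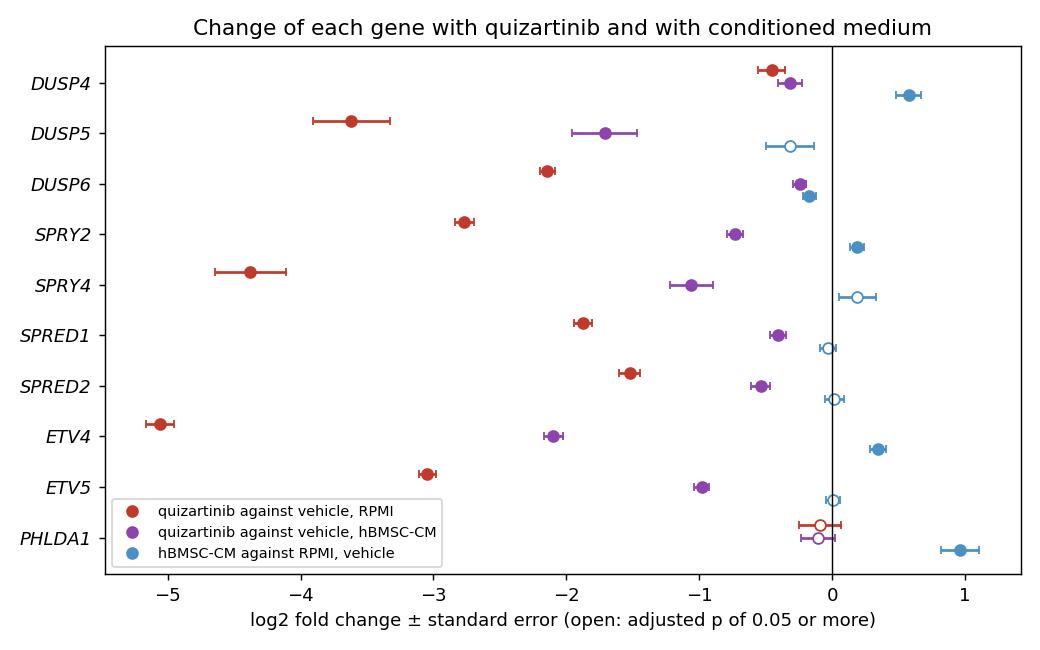
Log2 fold change (points) and standard error (bars) of the 10 genes for quizartinib against vehicle in RPMI and in hBMSC-CM, and for hBMSC-CM against RPMI with vehicle; open points did not pass the threshold. The RPMI drug changes run from −5.06 for ETV4 to −0.09 for PHLDA1, and the hBMSC-CM drug changes lie nearer to 0 for the 9 genes that fell.

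For the 9 genes lowered in RPMI, the size of the drug response that was left in hBMSC-CM was expressed as a ratio, the log2 change in hBMSC-CM divided by the RPMI one. The changes in the 2 media come from separate libraries, and the ratio is given as a description. The ratio was 0.11 for DUSP6 (0.10 to 0.13 when each library was left out), 0.22 for SPRED1, 0.24 for SPRY4 and 0.26 for SPRY2. It was 0.32 for ETV5, 0.35 for SPRED2, 0.41 for ETV4 (0.40 to 0.43), 0.47 for DUSP5 (0.38 to 0.53) and 0.69 for DUSP4 (0.56 to 0.83). The median was 0.32, and over all 5096 genes lowered in RPMI it was 0.49. These sets differ in the size of the fall: 8 of the 9 genes fell by at least 2-fold in RPMI, and 1536 of the 5096 did. Genes with a similar fall were not compared, for this ratio or for the measure below. Within families the ratios of the Sprouty genes were closest to each other, while those of the phosphatases spanned the whole range. Another measure, the log2 difference between media under the drug as a percentage of the RPMI fall, gave a different order. It was highest for DUSP4 (157.6%, 142.7% to 174% when each library was left out) and lowest for DUSP5 (43.97%), with 80.44% for DUSP6. The median was 76.76%, and 61.21% over all genes lowered in RPMI. Both parts of this measure share the RPMI quizartinib libraries. It also includes any difference between the media with vehicle, so it does not measure the drug response alone. For DUSP4 the vehicle difference was 0.58 (log2), beside a drug change of −0.45 in RPMI.

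**Figure D3:**
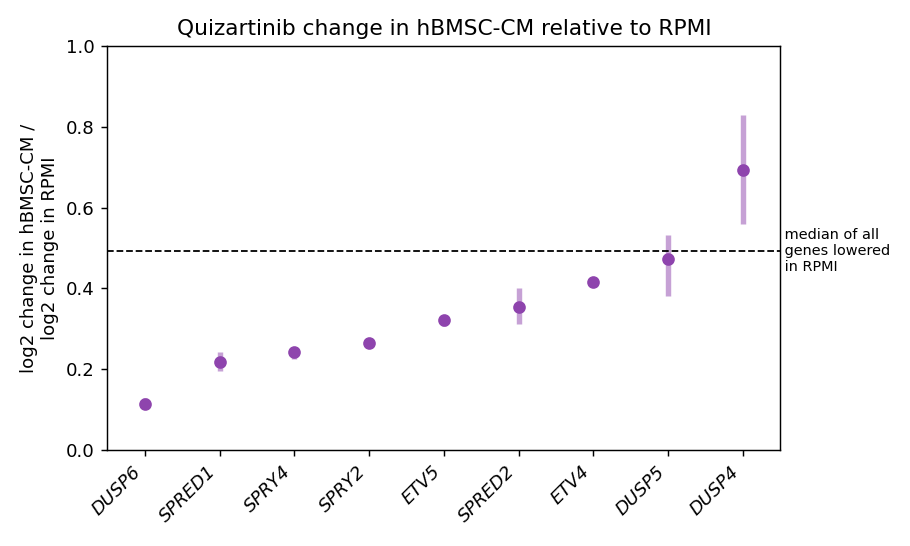
Log2 change with quizartinib in hBMSC-CM divided by the RPMI change (points) for the 9 genes lowered in RPMI, with the range over fits that each left out a library (bars); the dashed line is the median of all genes lowered in RPMI, 0.49. DUSP6 is lowest at 0.11, and DUSP4 at 0.69 is the gene above the line.

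The direct comparison of media under the drug showed the same genes at different levels. With quizartinib, all 10 genes had higher levels in hBMSC-CM (35.5% of tested genes did), and 8 by at least 2-fold (7.15% did). In each of the 10 the libraries of these groups did not overlap, as was so for 71.5% of tested genes in either direction. The largest log2 differences were those of SPRY4 (3.51, standard error 0.310), ETV4 (3.30, standard error 0.124) and SPRY2 (2.22, standard error 0.0751), and the smallest was that of DUSP4 (0.72, standard error 0.101). This comparison shares its RPMI quizartinib libraries with the drug comparison in RPMI.

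Without the drug the groups were closer. With vehicle, 4 genes were higher in hBMSC-CM (16.6% of tested genes were) and 1 was lower (15.5% were), with a median log2 fold change of 0.10. The libraries did not overlap for 5 genes (44.6% of tested genes, either direction). PHLDA1 was higher by 0.96 (standard error 0.143, edgeR adjusted p = 3.07e-05), DUSP4 by 0.58 (standard error 0.0930), ETV4 by 0.34 (standard error 0.0611) and SPRY2 by 0.19 (standard error 0.0555), and DUSP6 was lower, at −0.17 (standard error 0.0489). Without hBMSC-CM vehicle replicate 2 the calls of SPRY2 (0.15, edgeR adjusted p = 0.0668) and DUSP6 (−0.14, edgeR adjusted p = 0.0601) were lost and 3 genes were called. The call of SPRY2 over all libraries (edgeR adjusted p = 0.0133) was also lost at an adjusted p under 0.01. SPRED1, SPRED2 and ETV5 differed by −0.03, 0.02 and 0.01, with standard errors of 0.0601, 0.0712 and 0.0521, and the sign of these small values turned under other settings.

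Set against vehicle-treated cells in RPMI, quizartinib-treated cells in hBMSC-CM still had lower levels of 8 of the 10 genes (31.6% of tested genes were lower) and higher levels of 2 (30.6% were higher). DUSP5 and ETV4 were furthest below, with log2 differences of −2.03 (standard error 0.230) and −1.75 (standard error 0.0709), followed by ETV5 (−0.97) and SPRY4 (−0.87). DUSP6, SPRED1, SPRED2 and SPRY2 lay between −0.54 and −0.42. PHLDA1 was higher by 0.85 (standard error 0.144). DUSP4 was higher by 0.26 (standard error 0.0957, edgeR adjusted p = 0.0226), a call that ended without RPMI vehicle replicate 2 (0.24), without RPMI vehicle replicate 3 (0.25) and without hBMSC-CM quizartinib replicate 3 (0.20), with edgeR adjusted p-values of 0.0692, 0.057 and 0.114. It also ended with DESeq2's Wald test (adjusted p = 0.0631) and with no filter on low counts (edgeR adjusted p = 0.087).

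Levels can be set between genes per length of transcript. In vehicle-treated RPMI cells, CPM per kb of the canonical GENCODE transcript was 25.5 ± 0.181 (SD, n = 3) for DUSP6, followed by ETV5 (19.6 ± 0.693), ETV4 (18.85 ± 0.496), SPRY2 (16.3 ± 0.182), SPRED2 (7.37 ± 0.483) and SPRED1 (6.10 ± 0.183). DUSP5 (1.28 ± 0.0873), DUSP4 (1.25 ± 0.0534), SPRY4 (0.636 ± 0.111) and PHLDA1 (0.573 ± 0.0631) were far below. The libraries of ETV5 and ETV4 overlapped, as did those of DUSP5 and DUSP4 and those of SPRY4 and PHLDA1. Differences between these neighbours were not tested, so their order is left unsettled. SPRY4 and PHLDA1 change places when all annotated exons are used as the length. With quizartinib in RPMI, DUSP6 still led at 5.78 ± 0.498 CPM per kb, but ETV4 stood 7th (0.564 ± 0.0895), with libraries that overlapped those of PHLDA1 (0.539 ± 0.0466). With all annotated exons as the length these genes too change places.

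Across the 12 libraries the log2 CPM of these genes had a median Pearson r of 0.94 over 45 pairs, with values from 0.28 (DUSP5 and PHLDA1) to 0.997. These correlations are a description: the libraries fall into 4 groups, and each r includes the gaps between them. The closest genes in pattern were sought among up to 10373 tested genes averaging 5 CPM or more. For SPRY4 they were CCND1, the cyclin D1 gene (r = 0.997), SPRY2 (r = 0.997) and QTRT2 (r = 0.9965). For SPRY2 they were EARS2 (0.999), DKC1 (0.999) and DHX37 (0.999). The closest to ETV4 were NDUFAF4 (0.999), NHP2 (0.999) and SLC7A5 (0.999), and the closest to PHLDA1 were SREBF1 (0.972), PPARD (0.964) and SPG21 (0.960).

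Of 13 family relatives, 8 were tested, and with quizartinib in RPMI 3 fell and 3 rose, shares near those of all tested genes (39.2% lower and 40.1% higher). ETV1, the remaining PEA3 factor, had 6.73 ± 0.193 CPM with vehicle and 1.43 ± 0.287 CPM with quizartinib in RPMI (SD, n = 3). It fell by 2.23 there and by 0.76 in hBMSC-CM (log2), with an interaction of 1.47 (standard error 0.192, edgeR adjusted p = 2.22e-06). DUSP2, a nuclear MAP kinase phosphatase, fell by 2.03 and by 0.85 in the same media. Its RPMI levels were 11.1 ± 0.498 CPM with vehicle and 2.79 ± 0.888 CPM with quizartinib (SD, n = 3). DUSP7, a cytoplasmic relative of DUSP6, fell by 1.38 in RPMI (62.6 ± 3.11 CPM against 24.0 ± 0.796 CPM, SD, n = 3). Its vehicle level was already lower in hBMSC-CM, at 37.0 ± 1.93 CPM, and its quizartinib level there was 21.2 ± 1.19 CPM (SD, n = 3). DUSP10, SPRED3 and PHLDA3 rose in RPMI, by 0.34, 0.49 and 0.69.

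SPRY1 narrowly missed the filter and has no test. It had 37, 29 and 14 counts with vehicle and 0, 3 and 1 counts with quizartinib in RPMI, and 65, 32 and 50 counts with vehicle and 19, 21 and 18 counts with quizartinib in hBMSC-CM. The RPMI quizartinib libraries were the lowest, as for SPRY4.

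Of 21 other genes often read as ERK outputs, 16 were tested, and in RPMI 8 fell and 3 rose with quizartinib (median log2 fold change −0.46), beside 39.2% lower and 40.1% higher over all tested genes. CCND1 had 7.59 ± 0.445 CPM with vehicle and 0.680 ± 0.120 CPM with quizartinib (SD, n = 3). The log2 fold changes in RPMI were −3.48 for CCND1, −3.37 for FOSL1, which encodes the AP-1 subunit FRA1, and −3.09 for MYC. In hBMSC-CM they were −0.94, −1.28 and −0.41, and the interactions were 2.53 for CCND1 (standard error 0.201), 2.08 for FOSL1 (standard error 0.252) and 2.68 for MYC (standard error 0.0662). CCND1 and FOSL1 (0.775 ± 0.0427 CPM, SD, n = 3) also lay under 1 CPM with quizartinib in RPMI and passed the filter through the other groups. HBEGF, an EGF-family ligand gene, had 41.0 ± 1.35 CPM with vehicle and 10.4 ± 1.21 CPM with quizartinib in RPMI, and 127.5 ± 2.27 and 120.1 ± 1.03 CPM in hBMSC-CM (SD, n = 3). Among immediate early genes, EGR1 fell by 1.97 in RPMI, FOS had a log2 fold change of −0.04 and JUN rose by 0.36. With vehicle, 11 of the 16 had higher levels in hBMSC-CM than in RPMI (16.6% of all tested genes did), among them HBEGF by 1.63, IER3 by 1.43 and EGR1 by 1.17.

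Of 31 genes of the cascade, from FLT3 to the ERK-activated kinases, 30 were tested, and in RPMI 16 rose and 8 fell with quizartinib (median 0.19), where 40.1% of all tested genes rose and 39.2% fell. In hBMSC-CM 13 rose and 7 fell (median 0.07), where 33.4% of all tested genes rose and 33.7% fell. In RPMI, FLT3 rose by 1.12, from 209.3 ± 3.43 to 453.7 ± 9.42 CPM, and in hBMSC-CM by 0.47, from 113.3 ± 3.35 to 156.9 ± 5.88 CPM (SD, n = 3). RPS6KA2, a kinase activated by ERK, rose by 1.79 in RPMI and by 0.38 in hBMSC-CM, with an interaction of −1.40 (standard error 0.0896, edgeR adjusted p = 5.25e-11). RRAS, a Ras-related GTPase gene, rose by 1.29 in RPMI, and HRAS, MAP2K1 and PTPN11 fell by 1.00, 0.67 and 0.55. NRAS had a log2 fold change of −0.07 that did not pass the threshold. KSR1, a scaffold of RAF and MEK, rose more in hBMSC-CM (1.02) than in RPMI (0.33), with an interaction of 0.70 (standard error 0.0892, edgeR adjusted p = 1.75e-06).

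Of 10 genes that restrain Ras, 8 were tested and 4 rose and 2 fell in RPMI, not far from the 40.1% and 39.2% of all tested genes for a list of this size. RASAL2, a Ras GTPase-activating protein gene, rose by 1.495 (log2; 47.6 ± 1.28 CPM against 134.0 ± 2.00 CPM, SD, n = 3), and NF1, which encodes the neurofibromin that Spreds recruit, had a log2 fold change of 0.09 that did not pass the threshold. Of 17 ETS factors, repressors and regulators of the PEA3 group, 11 rose and 4 fell in RPMI, beside the same 40.1% and 39.2%. ETS2 rose by 1.52, from 88.02 ± 3.78 to 253.1 ± 6.68 CPM (SD, n = 3). CIC, a repressor of PEA3 genes that ERK relieves, had 81.3 ± 6.21 CPM with vehicle and 91.6 ± 6.39 CPM with quizartinib (SD, n = 3), a log2 fold change of 0.17 that did not pass the threshold, and its partner gene ATXN1 rose by 0.89.

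**Figure D4:**
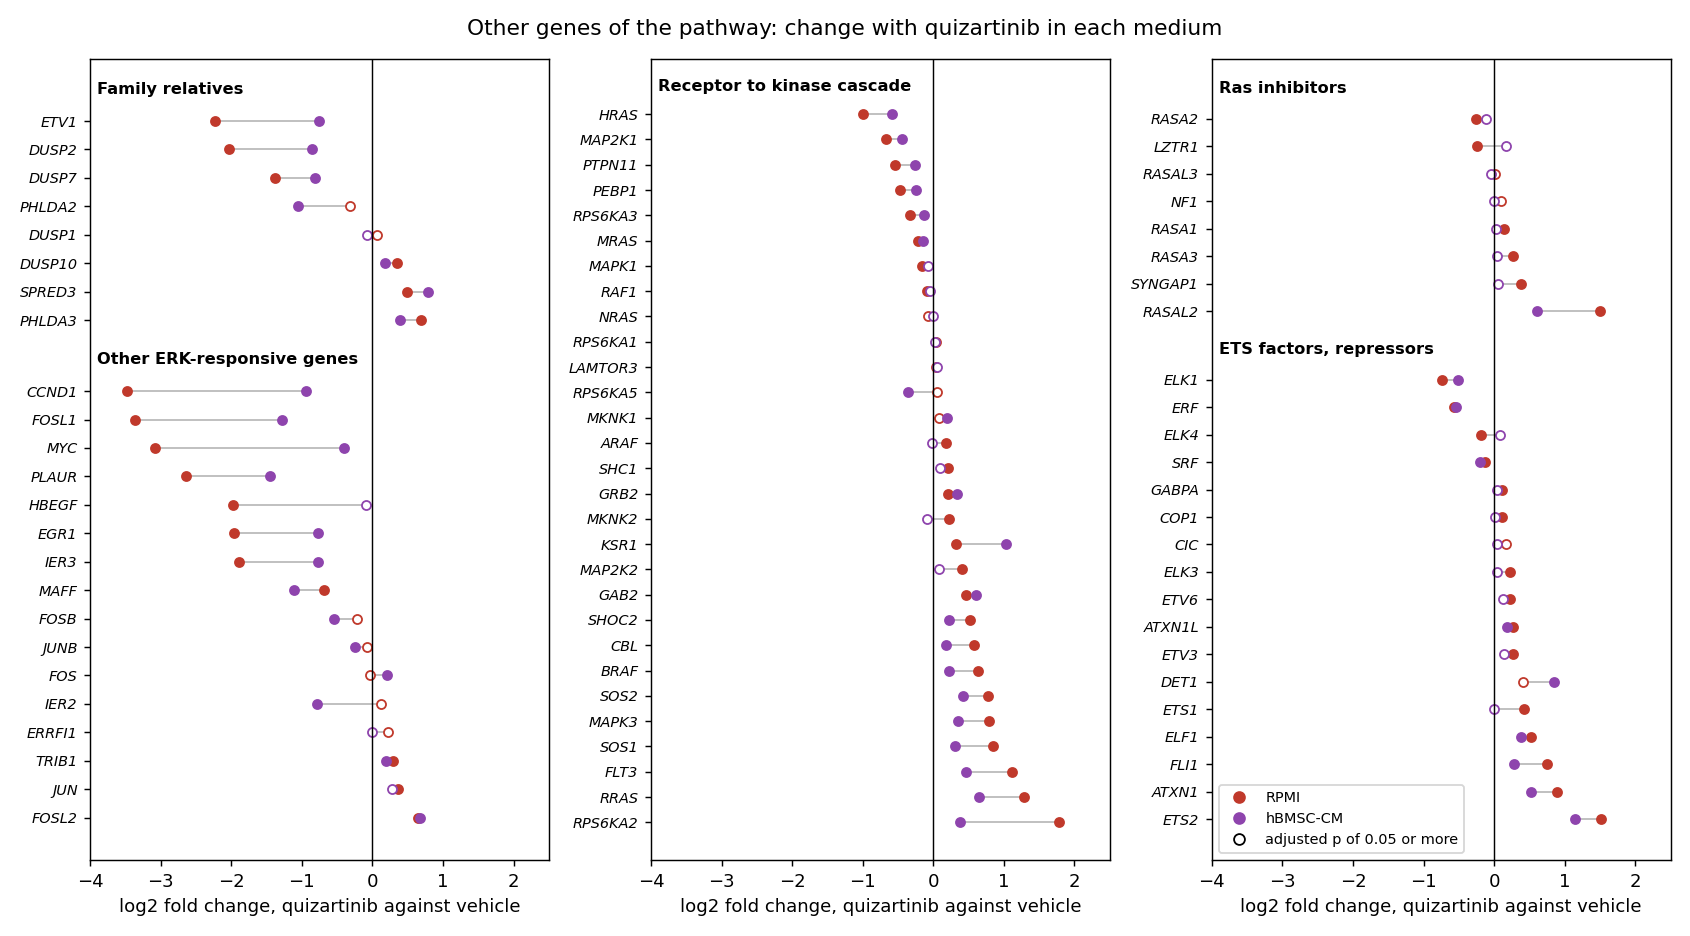
Log2 fold change of quizartinib against vehicle in RPMI and in hBMSC-CM for tested genes of 5 other lists of the pathway, 1 cascade gene not shown; a line joins the values of a gene, and open points did not pass the threshold. CCND1, FOSL1, MYC, ETV1 and DUSP2 lie left in RPMI and nearer to 0 in hBMSC-CM, while FLT3, RPS6KA2 and ETS2 lie right.

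Summed levels of 11 myeloid markers lay between 1119 and 1163 CPM with vehicle and between 1572 and 1593 CPM with quizartinib in RPMI. In hBMSC-CM the sums were 1474 to 1501 and 2183 to 2333 CPM, and LYZ or PTPRC was the most abundant of the list. The markers did not move as one: with quizartinib in RPMI, PTPRC and CSF1R rose by 0.98 and 2.02, while ITGAM, MPO, CEBPA and CD33 had log2 fold changes of −1.01, −0.41, −0.40 and −0.28, all called. CD68, a macrophage marker on the list, had at most 4 counts in a library. A list of 12 stromal markers covers genes that HS-5 cells could carry, although their medium was filtered before use. Of these markers, COL3A1, LUM, DCN, THY1 and POSTN were at 0 in all libraries. The sum of the list was 7.49 to 8.37 CPM with vehicle and 16.5 to 20.3 CPM with quizartinib in RPMI. In hBMSC-CM the sums were 5.55 to 7.12 and 9.92 to 11.1 CPM. ACTA2 or TAGLN led the stromal list, which was higher in RPMI than in hBMSC-CM with quizartinib. Of the list, 3 genes were tested. COL1A1, a collagen gene, passed the filter through RPMI with quizartinib, the group where it is high, and its vehicle libraries in RPMI held 13 counts in all. It had 0.177 ± 0.0869 CPM with vehicle and 4.61 ± 0.248 CPM with quizartinib in RPMI (SD, n = 3; log2 fold change 4.72, standard error 0.239). In hBMSC-CM, COL1A1 had 0.225 ± 0.0792 and 0.992 ± 0.143 CPM (SD, n = 3; log2 fold change 2.10, standard error 0.322). Mitochondrial transcripts took 0.726% ± 0.0563 of counts with vehicle in RPMI, 1.05% ± 0.0461 with quizartinib in RPMI, 0.511% ± 0.0888 with vehicle in hBMSC-CM and 0.856% ± 0.150 with quizartinib in hBMSC-CM (SD, n = 3). The part of these shares and of the myeloid and stromal markers in the results was not tested.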

How the data were processed

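RNA-seq libraries of the 12 samples were processed by the authors, whose processing notes name STAR 2.6.0a, limma and hg38, and deposited as raw counts per gene name. Per the study's methods, STAR also did the gene counting. The strand setting is not given in the sources used here. From these counts, CPM, TMM factors and quasi-likelihood tests were computed in edgeR 4.0.16 (R 4.3.3) with 1 mean per group over all 12 libraries. Genes with a mean count and a mean CPM of at least 1 were kept (12998 of 57353), and p-values were adjusted over them by Benjamini-Hochberg, with calls at 0.05. Total counts were 19966546 to 31546104, so that 3 counts correspond to 0.0951 to 0.150 CPM. Intervals cover counting error only. Alternatives used DESeq2 1.42.0, limma 3.58.1, other scalings and filters, and each library left out. On simulated counts for the RPMI drug comparison over 12998 genes, 45 of 50 changes of 1.5-fold and 47 of 50 of 2-fold were recovered. Only 200 genes were changed in this simulation, and 10 of the unchanged genes were called. In the data 10307 genes were called for this comparison, so the simulation does not test the scaling or the calls where most genes change. The 10 genes and all lists were chosen with earlier results of these data known. The text names all 10 genes, from each list genes among the 3 largest called increases and 3 largest called decreases per contrast, and genes among the 3 closest in pattern to a member. CIC, NRAS, SPRY1 and the myeloid and stromal markers were named after their values were seen. Gene positions came from GENCODE v44. The value of 1 cascade gene is not reported here, although the list's counts include it.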

Additional observations from a re-analysis of the deposited data

Results flagged for a closer look

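The quizartinib effect differed between the media, by a test of the difference itself, for 8 of the 10 genes, all with a positive difference, where 26.1% of all tested genes had one and 19.2% a negative one. The log2 effect in hBMSC-CM exceeded that in RPMI by 3.32 for SPRY4, 2.96 for ETV4, 2.06 for ETV5, 2.04 for SPRY2, 1.91 for DUSP5, 1.90 for DUSP6, 1.47 for SPRED1 and 0.98 for SPRED2. For DUSP4 and PHLDA1 the difference did not pass the threshold.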

How the results depend on the processing

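Of the values of single genes under the alternatives, 1323 kept their direction and side of the threshold, 9 lost the call and 20 changed sign. All 20 concern values that were not called. For PHLDA1 the drug change became 0.0096 in RPMI with upper-quartile factors, and ran from −0.221 to 0.048 in hBMSC-CM with a library left out. Its interaction became 0.000025 with library size only, 0.019 with limma-trend and 0.056 with no filter on low counts, and ran from −0.137 to 0.145 with a library left out. For hBMSC-CM against RPMI with vehicle, library size only gave −0.00036 for SPRED2 and −0.01 for ETV5, and upper-quartile factors gave −0.01 and −0.020. With a library left out, that comparison ran from −0.065 to 0.017 for SPRED1, from −0.046 to 0.075 for SPRED2 and from −0.037 to 0.041 for ETV5. The cause was not tested. With a library left out, 3 to 5 genes were called in that comparison, 0 to 1 of them lower. The number higher in quizartinib-treated hBMSC-CM cells than in RPMI vehicle cells was 1, with the call of DUSP4 lost, with DESeq2's Wald test, with no filter on low counts and at an adjusted p under 0.01. It was also 1 at a mean CPM of at least 5, where 7 of the 10 genes were tested and PHLDA1 was not, and 1 to 2 with a library left out. The counts lowered by quizartinib stayed at 9 in both media with each library left out. Library size only moved the median of all genes by 0.104 for the drug in hBMSC-CM and upper-quartile factors by 0.102 for the drug in RPMI. The share of calls that were higher went from 49.8% to 62.8% (library size only) and 60% (upper-quartile factors) for the drug in hBMSC-CM, and from 49.2% to 62.1% (library size only) for quizartinib in hBMSC-CM against vehicle in RPMI. Shares also turned from 51.8% to 45.7% (library size only) and 42.1% (upper-quartile factors) for hBMSC-CM against RPMI with vehicle, and from 50.8% to 45.7% (upper-quartile factors) with quizartinib. Replicate numbers did not pair the libraries (same-number correlations −0.227 to 0.098). A replicate block left 9 genes lowered by quizartinib in each medium and 8 interactions, changed no call of the 10 genes, and moved calls over all genes from 10307 to 10224 for the drug in RPMI. A library correlated best with its own number in 6 of 36 checks. SPRY4 and DUSP5 are limited by depth in RPMI with quizartinib.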

Other observations

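Of the 24 tested family relatives and ERK outputs, 4 (IER2, PHLDA2, FOSB and JUNB) fell with quizartinib in hBMSC-CM and did not pass the threshold in RPMI, as was so for 3.09% of all tested genes. IER2, an immediate early gene, fell by 0.79 on the log2 scale in hBMSC-CM and had a log2 fold change of 0.12 in RPMI, with an interaction of −0.91 (standard error 0.119, edgeR adjusted p = 2.54e-06). PHLDA2, a relative of PHLDA1, fell by 1.05 in hBMSC-CM and had −0.32 in RPMI, with an interaction of −0.74 (standard error 0.265, edgeR adjusted p = 0.0279). For FOSB (−0.54 in hBMSC-CM, −0.22 in RPMI) and JUNB (−0.24 and −0.08) the interaction did not pass the threshold (edgeR adjusted p = 0.276 and 0.251). With vehicle, hBMSC-CM exceeded RPMI by 0.37 for IER2 and by 0.91 for PHLDA2. These genes were picked after their values were seen.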
